A study of Mus musculus with 18 samples.

Results

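The genes described here encode the core of the spliceosome and the SR proteins that guide it. They were chosen by symbol: Sf3a and Sf3b subunits, numbered Srsf genes, Snrpa to Snrpg, the Snrnp genes, and numbered Prpf and Lsm genes, with Snrpn left out. Where several probe sets name a gene alone, the one with the highest mean log2 value was used. This gave 60 genes of the 19935 that a probe set names alone. The rule used no measured change, though earlier results of these data were known when it was set. Snrpf has only a probe set shared with another gene and was not analysed here, nor were Snrnp40 and Srsf7.

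RNA was profiled in 18 single mouse 2-cell embryos with 1 Mouse Gene 1.0 ST array (Affymetrix) for each. WT 129SVE females were naturally mated either with WT males (fathers WT1, WT2 and WT3) or with Parg(110)-/- males (fathers PargA, PargB and PargC), and each father gave 3 embryos. The 9 embryos of the Parg(110)-/- males are written Parg(110)-/+, since 1 of their alleles of Parg lacked exons 2 and 3. Parg is the gene of the enzyme that degrades poly(ADP-ribose). An embryo is named by its father and a number (PargB-1). No embryo was treated, and the father's sperm and the embryo's own genotype cannot be told apart in this design.

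Introns are removed by the spliceosome, which is built on each transcript from small nuclear ribonucleoprotein particles (snRNPs). U1 marks the start of the intron and U2 its branch point, and the U4/U6.U5 tri-snRNP then joins to form the catalytic centre, while a minor spliceosome with U11 and U12 removes a small class of introns. Sm proteins form a ring around most of the small nuclear RNAs, LSm proteins form the related ring of U6 and, in the cytoplasm, a ring that takes part in decapping of mRNA, and SR proteins bind exons and help to select splice sites. At the 2-cell stage the mouse embryo uses splicing factors inherited from the oocyte while its own genome is being activated.

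The 60 genes comprised 6 of the Sm core, 5 of U1, 11 of U2, 12 of U5 and the tri-snRNP, 3 of U11/U12, 13 LSm genes and 10 SR protein genes. The class of U5 and the tri-snRNP holds Snrnp27, Snrnp200 and all Prpf genes but Prpf39 and Prpf40b. With Prpf18 and Prpf19 in it, it is a grouping for description and not a list of that particle's subunits. All of the 60 genes but Srsf12 and Prpf40b lay at or above 6.47, the median of the mean log2 values of all probe sets. Probe sets at or above it are called bright below. Log2 values of the 60 genes ran from 5.79 to 12.70. Levels of different genes rest on different probes and were not ranked.

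Among the whole series, array medians lay between 6.34 and 6.53, and PargB-1 stood apart with 625 probe sets called against the WT embryos, against 138 to 330 in the other 17 embryos. The Parg probe set read a log2 level of 9.55 to 10.89 (median 10.62) in WT and 9.37 to 10.83 (median 10.26) in Parg(110)-/+ embryos, a difference of -0.32 ± 0.20 (SE) with an adjusted p of 0.571 in limma. Whether that probe set lies in the deleted exons was not tested. Of the markers listed for the embryo, 7 of 8 measured 2-cell genes and 14 of 15 oocyte genes were bright. Markers of other cells were bright in 4 of 14 cases for cumulus, granulosa and oviduct cells, 3 of 13 for spermatids and 0 of 7 for blood, and their levels, as the mean log2 level of a list, ran from 5.96 to 6.27, 5.40 to 5.70 and 5.21 to 5.45 in WT and from 6.16 to 6.40, 5.53 to 5.66 and 5.37 to 5.53 in Parg(110)-/+ embryos. Their part in the results below was not tested.

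Promoters of the most and the least variable of these genes are given as examples of the upstream sequences of the group. RefSeq (GRCm38.p6) gave the 250 bases before the start for 62 promoters of 52 of the 60 genes. The ETS core CCGGAAG was present, on either strand, in 33.9% of these promoters and in 6.91% of all promoters of the same length. The Sp1 core GGGCGG was present in 64.5% and 32.7%, the CCAAT box in 33.9% and 33.9%, and TATAAA in 8.07% and 12.4%. The median GC content was 58.6% against 52.4%. Below are Lsm5 and Lsm6, whose log2 values spread most over the embryos, and Srsf1 and Srsf5, which are among those that spread least and have 1 promoter each, read 5′ to 3′ on the strand of the gene with ETS and Sp1 matches in capitals on either strand.
Lsm5, chr6:56704700-56704949, minus strand: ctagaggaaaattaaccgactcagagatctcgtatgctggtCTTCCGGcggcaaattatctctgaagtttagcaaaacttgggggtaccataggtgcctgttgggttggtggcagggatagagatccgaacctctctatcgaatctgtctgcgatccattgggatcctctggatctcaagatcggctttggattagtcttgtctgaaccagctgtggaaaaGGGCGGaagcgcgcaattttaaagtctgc
Lsm6, chr8:78821153-78821402, minus strand: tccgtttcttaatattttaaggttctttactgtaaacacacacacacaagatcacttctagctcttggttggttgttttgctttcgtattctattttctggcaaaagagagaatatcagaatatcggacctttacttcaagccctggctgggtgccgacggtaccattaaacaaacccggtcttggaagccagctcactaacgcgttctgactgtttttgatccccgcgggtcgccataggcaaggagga
Srsf1, chr11:88047123-88047372, plus strand: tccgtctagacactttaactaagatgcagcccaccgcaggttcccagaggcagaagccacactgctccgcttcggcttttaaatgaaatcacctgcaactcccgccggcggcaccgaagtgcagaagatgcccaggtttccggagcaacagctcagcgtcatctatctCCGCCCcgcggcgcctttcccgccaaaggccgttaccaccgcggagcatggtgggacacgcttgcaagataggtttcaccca
Srsf5, chr12:80945249-80945498, plus strand: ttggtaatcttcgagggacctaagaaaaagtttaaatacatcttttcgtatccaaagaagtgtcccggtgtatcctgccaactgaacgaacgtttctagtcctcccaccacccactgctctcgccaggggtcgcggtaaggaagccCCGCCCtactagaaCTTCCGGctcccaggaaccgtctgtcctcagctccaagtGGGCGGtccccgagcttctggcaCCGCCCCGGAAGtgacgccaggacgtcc
Lsm5 holds 1 ETS and 1 Sp1 match, Lsm6 holds 0 of either, Srsf1 holds 1 Sp1 match, and Srsf5 holds 2 ETS and 3 Sp1 matches, of which 1 of each overlap in the last run of capitals. A match is a description of letters and not a binding site.

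Transcripts of the spliceosome varied between single embryos. By SD not set against signal level, they varied most in the U11/U12, U2 and LSm genes and least in the Sm core and SR genes. This order did not hold within level bands, where 4 of 6 Sm genes, 7 of 11 U2 genes and 2 of 3 U11/U12 genes lay above the median. By particle the median SD of log2 values was 0.88 (U11/U12), 0.59 (U2), 0.58 (LSm), 0.46 (U5 and tri-snRNP), 0.35 (U1), 0.23 (SR) and 0.22 (Sm core). The median SD over 18 embryos was 0.43 log2 units for the 60 genes, against 0.20 over all 28815 probe sets and 0.32 over bright ones, and at a mean level of 8 or more it was 0.47 for the genes and 0.41 for the probe sets. SD depends on signal, with the largest median, 0.53, for probe sets at 8 to 9 and the smallest, 0.12, for those at 12 and over. Compared with the median of all probe sets in its own level band, the SD was larger for 37 of the 60 genes, and for 10 of the 13 LSm genes, 5 of the 10 SR genes, 7 of 11 U2 genes, 7 of 12 U5 and tri-snRNP genes, 4 of 6 Sm genes, 2 of 5 U1 genes and 2 of 3 U11/U12 genes. The range was 4 log2 units or more for 3 genes and under 1 for 20. Within the genotypes the median SD was 0.37 in WT and 0.37 in Parg(110)-/+ embryos, and 34 genes had the larger SD in the latter.

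**Figure D1:**
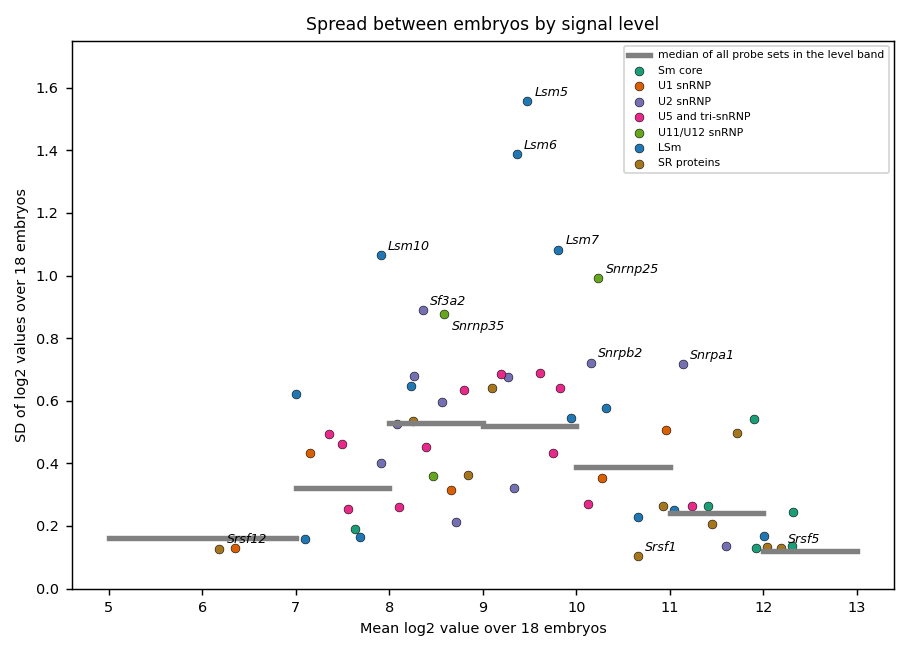
SD of log2 values over 18 embryos (vertical axis) against the mean log2 value (horizontal axis) for the 60 genes, coloured by particle, with grey bars for the median of all probe sets in each level band. Lsm5 (SD 1.56) and Lsm6 (1.39) lie far above the bar of their band, and Srsf1 (0.10) far below its own.

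Lsm5 and Lsm6 encode subunits of the ring on U6 and of the decapping ring, and they had the largest SDs of the group, 1.56 and 1.39. For Lsm5, the log2 level was 6.91, 10.14 and 11.43 (lowest, median and highest) in WT and 6.03, 9.35 and 11.17 in Parg(110)-/+ embryos. The groups overlapped over nearly their whole range, and low values were found in WT2-2 (6.91) and PargC-3 (6.03). For Lsm6, the log2 level was 5.79, 9.00 and 10.80 in WT and 7.01, 10.20 and 10.98 in Parg(110)-/+ embryos. Single embryos set the lower ends, WT3-2 at 5.79 and PargA-2 at 7.01. Lsm7, another subunit of both rings, spread with an SD of 1.08, from 7.18 in PargA-2 to 11.21 in PargA-1, embryos of the same father. Lsm10, a subunit of the U7 snRNP that processes histone mRNA, had an SD of 1.07 and ran from 6.29 (PargB-2) to 9.86 (WT1-1). The low embryos were partly shared: PargA-2 was lowest of its group for both Lsm6 and Lsm7 and read 9.35 for Lsm5, while PargC-3 read 6.03 for Lsm5 and 10.14 for Lsm6.

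In 10 of the 60 genes several probe sets name the gene, and for the most variable ones they were low in the same embryos. For Lsm5, the difference between the chosen and the next probe set had an SD of only 0.20 over the embryos, and both were lowest in PargC-3 and highest in WT3-1, while a dim probe set of the same gene (mean 6.12) departed from them with an SD of difference of 1.40. For Lsm6, these SDs were 0.40 and 0.86, and for Lsm7 the only other probe set gave 0.25. The 5 probe sets of Snrpd2, a subunit of the Sm ring, were all lowest in PargB-1. In 2 genes, Snrpc and Srsf3, the probe sets differed in the sign of the genotype difference given below. Whether the probe sets of a gene share probes, or also read near-identical copies of it, was not tested.

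**Figure D2:**
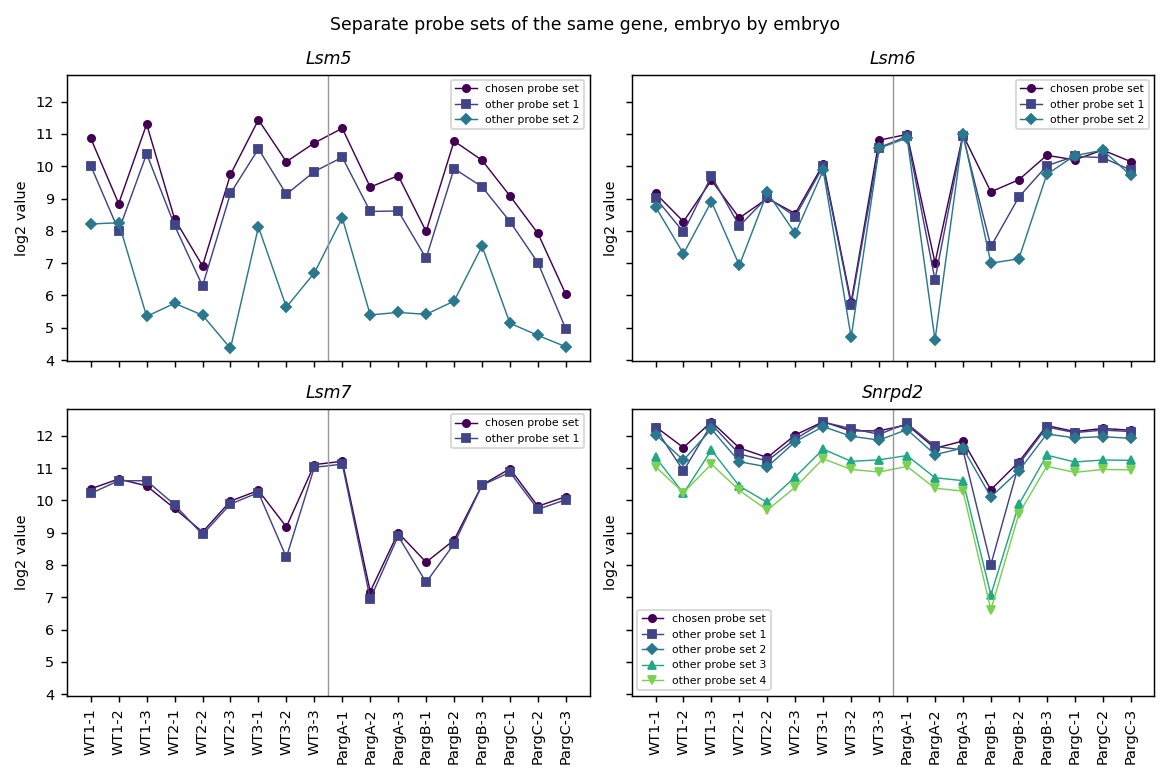
Log2 values (vertical axis) of every probe set naming Lsm5, Lsm6, Lsm7 or Snrpd2 alone, in each of the 18 embryos (horizontal axis, WT left of the line). The probe sets of a gene mostly rise and dip in the same embryos, such as WT3-2 for Lsm6 and PargB-1 for Snrpd2. The dim one of Lsm5 departs from the others, and those of Lsm6 part in PargB-1, at 9.21, 7.52 and 7.00.

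The other genes with the largest SDs served the minor spliceosome and U2. Snrnp25 and Snrnp35, both proteins of the U11/U12 snRNP, had SDs of 0.99 and 0.88, with log2 levels from 8.72 to 11.47 and from 7.13 to 10.10. Sf3a2, a subunit of the SF3a complex that binds U2 to the branch point, had an SD of 0.89 and ran from 7.19 (PargB-3) to 10.22 (WT3-1). Snrpb2, which encodes the U2-B'' protein, had an SD of 0.72 and ran from 8.69 (PargA-3) to 11.47 (WT2-3).

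The genes with the smallest SDs were mostly SR genes, when the SD is not set against signal level. Within their level bands, 5 of the 10 SR genes had an SD above the median. Srsf1, which binds exonic enhancers, had the smallest SD, 0.10, with a log2 level of 10.46, 10.71 and 10.82 (lowest, median and highest) in WT and 10.54, 10.65 and 10.81 in Parg(110)-/+ embryos. Every embryo thus lay within a range smaller than that of any other of the 60 genes. Srsf5 and Srsf10 had SDs of 0.13 and 0.13, as did the dim Srsf12 (0.13) and Prpf40b (0.13), a U1-associated gene. For Srsf5 and Srsf10 this lay above 0.12, the median of all probe sets in their level band. Snrpe of the Sm ring also had an SD of 0.13, and ran from 11.70 to 12.21. The SR genes were not all alike, since Srsf9 (SD 0.64) and Srsf11 (0.54) had values over 1 log2 unit below their median in PargB-1. Srsf3 had an SD of 0.50, where the median of its level band was 0.24.

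**Figure D3:**
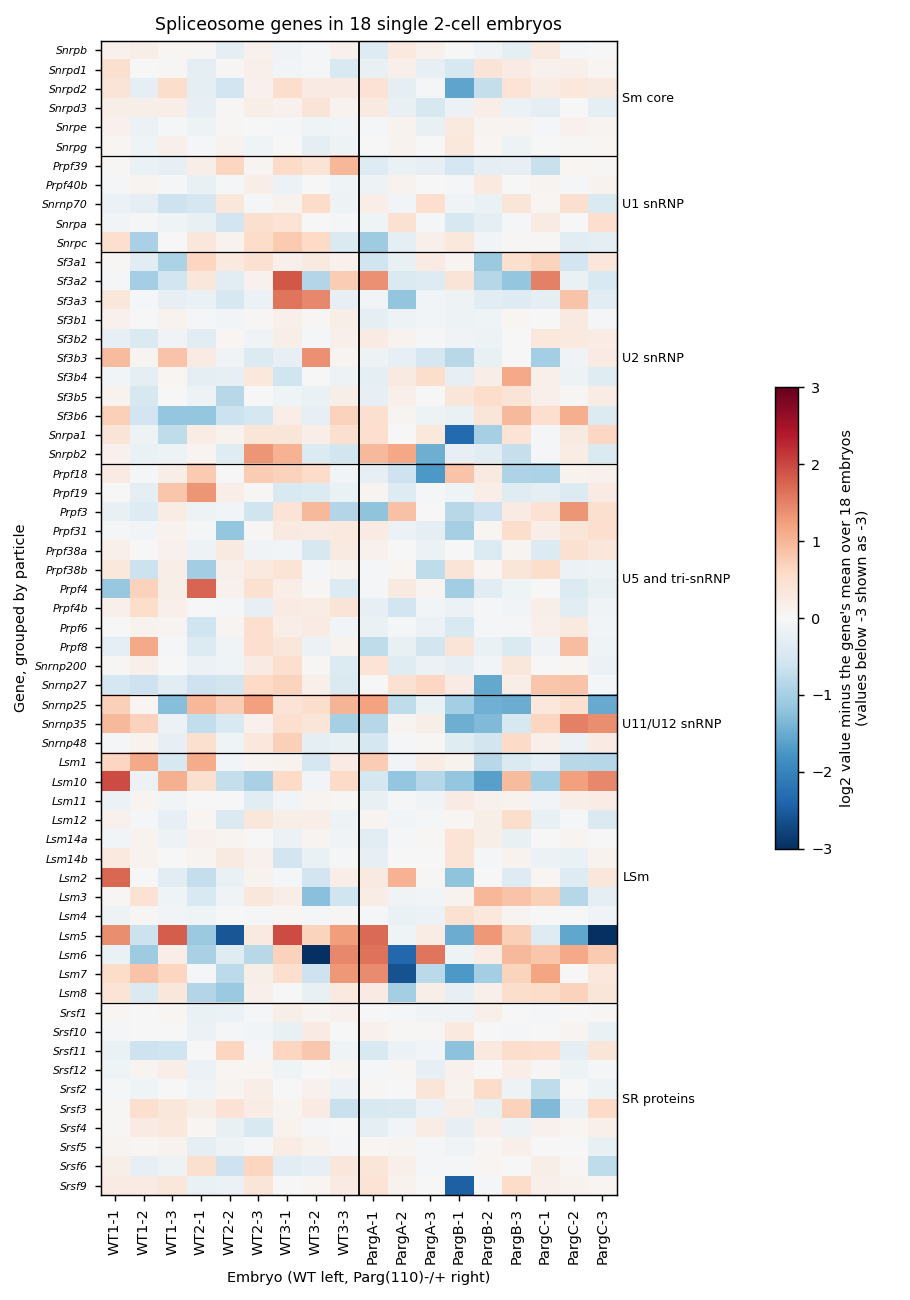
Deviation of each log2 value from the mean of its gene over 18 embryos (colour) for 60 genes (rows, grouped by particle) and 18 embryos (columns). The LSm and U11/U12 blocks hold the strongest colours, spread over different embryos, and the column of PargB-1 holds dark cells for Srsf9 (log2 value 6.66), Snrpa1 (8.82) and Snrpd2 (10.33).

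A drop of over 1 log2 unit below the median of the gene was found in 1 or more embryos for 25 of the 60 genes, 41.7% against 23.0% of bright probe sets. At a mean level of 8 or more it was 24 of 48 genes, 50% against 39.8% of the probe sets at that level. Without PargB-1 it was 21 of the 60, and no share of probe sets without that embryo is given here. PargB-1 was low by this measure for 12 of the 60 genes, 20% against 5.92% of bright probe sets. At a level of 8 or more it was 11 of 48, 22.9% against 10.5%, while in the other 17 embryos the median share was 4.17% of these genes and 3.82% of the probe sets. The mean deviation of the 60 genes was lowest in PargB-1, at -0.31 log2 units (-0.04 for bright probe sets), and highest in WT3-1, at 0.26. The median deviation was -0.14 in PargB-1 and -0.14 in WT2-1, and 37 of the 60 genes lay below their mean in each. PargB-1 was the lowest embryo for 7 genes (11.7%, against 9.54% of bright probe sets). It was the highest for 8 genes (13.3%, against 9.46%).

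The question of the design is whether transcript levels in the embryo differ with the father's Parg genotype. For the spliceosome, 0 of 60 genes passed an adjusted p of 0.1 in limma, where 0% of all probe sets did, and in no gene did the values of the 2 genotypes lie apart without overlap, as they did in 0.0104% of all probe sets. The smallest adjusted p was 0.362 among the 60 genes and 0.354 among all probe sets. At an unadjusted p under 0.05, 6 genes lay lower in Parg(110)-/+ embryos, 10% of the 60, against 1.51% of all probe sets and 2.62% of bright ones. Another 3 lay higher, 5%, against 8.96% of all and 7.77% of bright probe sets. At a level of 8 or more the counts were 5 lower and 3 higher of 48 genes, against 3.79% and 3.56% of the probe sets at that level. The RNA of an embryo's cells was read together, so fewer cells giving RNA and less RNA per cell cannot be told apart.

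The difference was below 0 in 39 genes and above 0 in 21, with a median of -0.03 log2 units against 0.05 over all probe sets and 0.04 over bright ones. That is 65% lower among the 60 genes, where 32.9% of all probe sets and 41.4% of bright ones lay lower. At a level of 8 or more, 64.6% of the genes and 53.9% of the probe sets lay lower, and their medians were -0.02 and -0.01. With arrays set to equal medians 42 genes were lower, and the share at a level of 8 or more was 70.8% of the genes against 65.9% of the probe sets. After a second quantile normalization 36 were lower, and these shares were 58.3% and 50.5%. Without PargB-1 35 were lower, with a median of -0.01 and shares of 56.2% and 51.5%. The share lower over all probe sets was 52.0%, 44.2% and 33.3% in these settings.

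In the Sm core and U1, the differences went both ways. Snrpd3, an Sm ring protein, read 12.08, 12.48 and 12.70 (lowest, median and highest log2 level) in WT and 11.83, 12.14 and 12.59 in Parg(110)-/+ embryos. In 7 of the 9 Parg(110)-/+ embryos it was under the WT mean, with a difference of -0.26 ± 0.10 (SE) and an adjusted p of 0.412 in limma. Snrpe was the Sm gene with the largest positive difference, 0.11 ± 0.06. Prpf39, which belongs to U1, had the smallest p of the 60 genes, with 6.91, 7.33 and 8.16 in WT and 6.48, 6.90 and 7.20 in Parg(110)-/+ embryos. All 9 of the latter lay below the WT mean, though the groups overlapped, and the difference was -0.55 ± 0.15 (limma, adjusted p = 0.362). Snrnp70, which encodes the U1-70K protein, differed by 0.17 ± 0.16. In the Sm core 3 of 6 genes were lower and in U1 2 of 5, which became 4 and 3 with equal array medians, with medians that turned from 0.001 and 0.05 to -0.05 and -0.01.

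In U2, 7 of 11 genes were lower, and the subunits of SF3b, the complex that holds the branch point, lay on both sides. Sf3b3 read 8.14, 8.65 and 9.93 in WT and 7.53, 8.34 and 8.82 in Parg(110)-/+ embryos, again with all 9 of the latter below the WT mean (-0.62 ± 0.23, limma, adjusted p = 0.407). Sf3b5 read 8.49, 9.20 and 9.50 in WT and 9.08, 9.49 and 9.85 in Parg(110)-/+ embryos, with 8 of 9 above the WT mean (0.35 ± 0.13, limma, adjusted p = 0.399). Sf3b6, whose protein contacts the branch point, differed by 0.61 ± 0.28 and Sf3b2 by 0.19 ± 0.09, with adjusted p of 0.467 and 0.474 in limma. These were the 3 genes higher at an unadjusted p under 0.05, and all are SF3b subunits. That count was 1 with equal array medians, and 1 without any of WT1-2, WT1-3, WT2-1, WT2-3, WT3-2, PargA-1, PargC-1 or PargC-2.

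In the class of U5 and the tri-snRNP, 8 of 12 genes were lower. Prpf4b, a kinase that phosphorylates tri-snRNP proteins, read 9.89, 10.28 and 10.66 in WT and 9.55, 10.01 and 10.30 in Parg(110)-/+ embryos, with 8 of 9 below the WT mean (-0.32 ± 0.10, limma, adjusted p = 0.362). Prpf18, which acts in a later step of splicing, read 9.53, 9.86 and 10.39 in WT and 7.89, 9.35 and 10.46 in Parg(110)-/+ embryos, where PargA-3 was the lowest and PargB-1 the highest of all 18 (-0.69 ± 0.27, limma, adjusted p = 0.428). Snrnp27, a tri-snRNP protein, had the largest positive difference of this class, 0.36 ± 0.28. Prpf8, the protein at the catalytic centre, differed by -0.24 ± 0.22 and Snrnp200, the helicase that unwinds U4 from U6, by -0.05 ± 0.12.

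In the minor spliceosome, Snrnp25 read 8.97, 10.96 and 11.47 in WT and 8.72, 9.47 and 11.44 in Parg(110)-/+ embryos, the largest negative difference of the group at -0.98 ± 0.40 (limma, adjusted p = 0.431). Its WT embryos lay above 10 except WT1-3 (8.97), and so did PargA-1, PargA-3, PargC-1 and PargC-2. The difference was -1.20 without WT1-3 and -0.86 without PargC-3. Snrnp35 and Snrnp48 differed by -0.07 ± 0.41 and -0.15 ± 0.16. All 3 genes were lower on the deposited values and both other scalings, and 2 without PargB-1.

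In the LSm genes, Lsm6 had the largest positive difference, 1.04 ± 0.59 (limma, adjusted p = 0.534), with 8 of 9 Parg(110)-/+ embryos above the WT mean. It rested in part on single embryos: the difference was 0.65 without WT3-2 and 1.39 without PargA-2. These values are of the chosen probe set. The other probe sets of Lsm6 gave smaller differences, 0.76 ± 0.67 and 0.76 ± 0.90. PargB-1 read 7.52 and 7.00 on them, against 9.21 on the chosen one. Lsm5 had the largest negative difference, -0.68 ± 0.70. Lsm1, the subunit that distinguishes the decapping ring, differed by -0.50 ± 0.26 (limma, adjusted p = 0.507), with 8 of 9 below the WT mean. Of 13 LSm genes 7 were lower. Of 10 SR genes 9 were lower, with a median of -0.01, and this count was 7 after a second quantile normalization and 6 without PargB-1. Srsf3 (-0.29 ± 0.22) and Srsf10 (0.07 ± 0.06) had the largest differences in each direction.

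**Figure D4:**
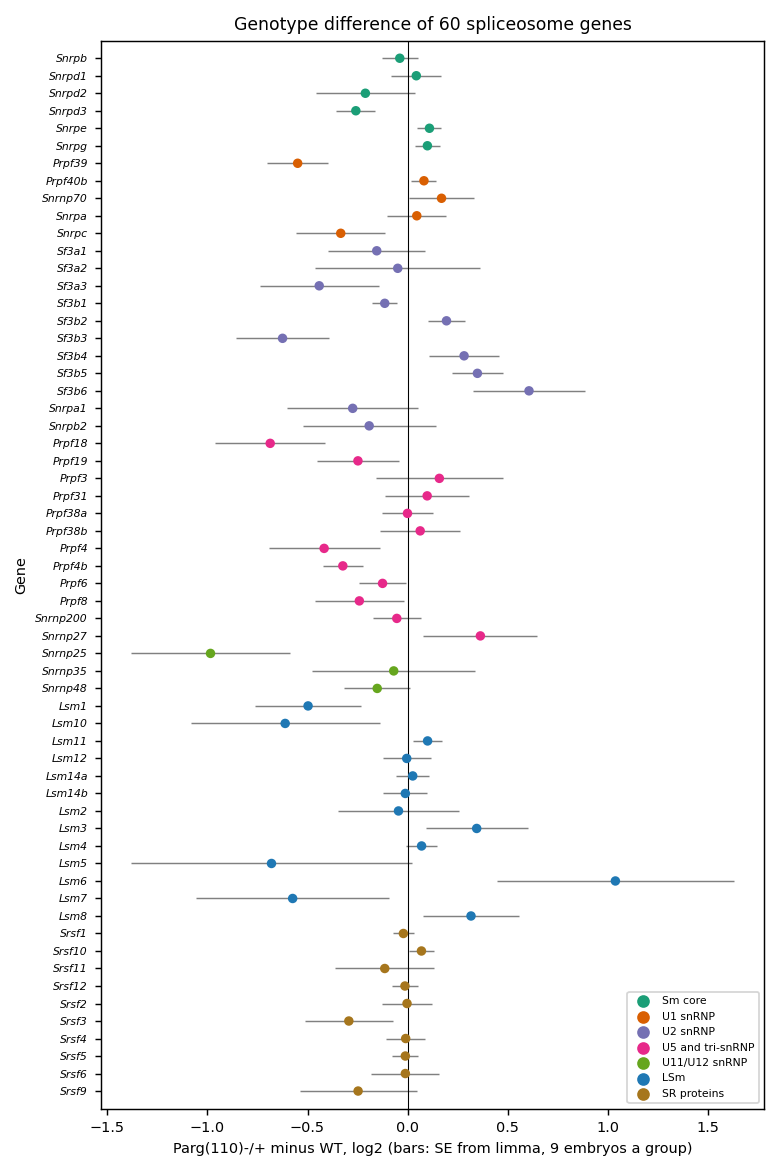
Genotype difference, Parg(110)-/+ minus WT in log2 units (horizontal axis), with its SE as bars, for each of 60 genes (vertical axis) coloured by particle. The points lie on both sides of 0, from -0.98 (Snrnp25) to 1.04 (Lsm6), and 7 of the 10 SR genes lie within 0.1 of 0.

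**Figure D5:**
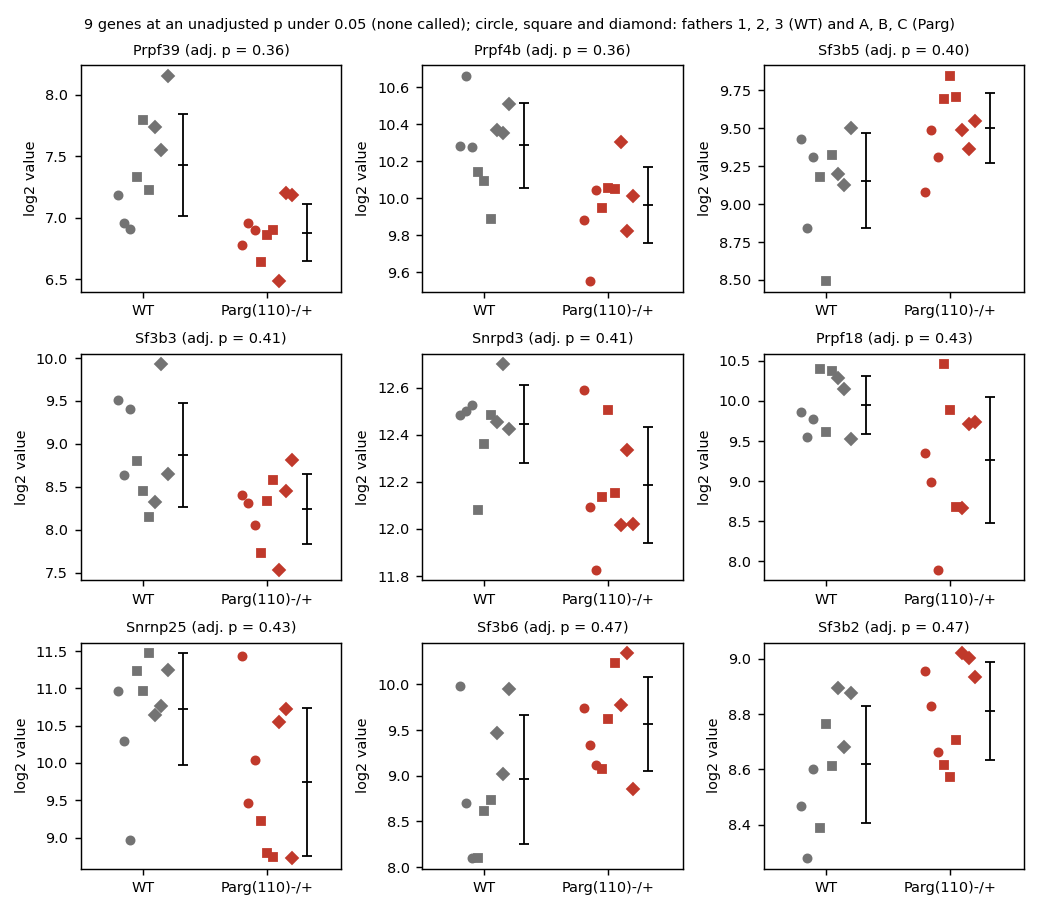
Log2 values (vertical axis) of single WT and Parg(110)-/+ embryos for the 9 genes at an unadjusted p under 0.05, with the father shown by the shape of the point and mean ± SD as bars. The groups overlap in every panel, and the adjusted p ranges from 0.36 to 0.47.

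Fathers of the same genotype were compared with an F test in limma. Between the 3 WT fathers, 0 of 60 genes were called, against 0.00347% of all probe sets, and 7 genes (11.7%) had an unadjusted p under 0.05, against 4.39%. Prpf39 had the smallest p, with means of 7.02 (WT1), 7.45 (WT2) and 7.81 (WT3), and so varied between WT fathers by more than the 0.55 that separates the genotypes. Srsf1 (10.70, 10.52 and 10.79), Sf3b2 (8.45, 8.59 and 8.82) and Lsm14b, a P-body protein (10.79, 10.82 and 10.38), followed. Between the Parg(110)-/- fathers, 0 were called, against 0.0104%, and 4 genes (6.67%) had an unadjusted p under 0.05, against 5.34%. These background shares are of all 28815 probe sets, of which 18160 lie under a mean level of 7, as do 3 of the 60 genes. No share at the level of these genes is given here.

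Among the families of Parg(110)-/- fathers, Snrnp35 had the smallest p. The embryos of PargA read 7.73, 8.67 and 8.76. With PargB as the father they read 7.13, 7.27 and 8.10, while those of PargC read 9.22, 10.10 and 9.97. The embryos of PargC all lay above the 6 others (F = 12.7, limma, adjusted p = 0.740). Lsm4 of the U6 ring read 8.15, 7.99 and 7.78 with PargB as the father. It read 7.62, 7.48 and 7.50 with PargA, while PargC gave 7.68, 7.70 and 7.59. The embryos of PargB all lay above the others (F = 12.3, limma, adjusted p = 0.740). Sf3b2 and Snrpa1, the U2-A' protein, were the other 2 genes, and the Snrpa1 means were 11.41 (PargA), 10.17 (PargB) and 11.43 (PargC). Without PargB-1, which read 8.82, the PargB mean of Snrpa1 was 10.85.

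The study compared single embryos with the WT embryos, and each embryo was therefore also set against them. The fit takes the spread of the WT embryos for the single embryo too, and the comparisons share these controls. Over the 9 Parg(110)-/+ embryos, 7 of 540 tests of the spliceosome genes were called at an adjusted p under 0.1 in limma (1.30%), and over the 9 WT embryos, each against the other 8, 4 of 540 (0.741%). Whether these shares differ was not tested. Among all probe sets, the share called for father PargA was 0.628%, 0.635% and 0.604% in embryos 1, 2 and 3. It was 2.17%, 0.691% and 0.826% with PargB as the father. PargC gave 0.76%, 0.625% and 0.843%. Of the WT fathers, WT1 gave 0.732%, 0.479% and 0.708%. WT2 gave 0.93%, 0.68% and 0.6%, while the shares of WT3 were 1.15%, 0.732% and 0.569%. PargB-1 thus had the largest share of all 18.

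PargB-1 held 4 of the 7 calls, 6.67% of the 60 genes against its background of 2.17% of all 28815 probe sets. Most of these probe sets are dimmer than the 60 genes. No share of single embryo calls at the level of these genes is given here, for PargB-1 or for the other embryos. In this embryo Srsf9, an SR protein, read 6.66 where the WT embryos read 8.89 to 9.47, and it fell by 2.56 ± 0.22 (SE) against their mean (limma, adjusted p = 2.7e-04). Snrpa1 read 8.82 against 10.38 to 11.62 and fell by 2.46 (limma, adjusted p = 0.0116). Snrpd2 read 10.33 against 11.33 to 12.43 and fell by 1.68 (limma, adjusted p = 0.0819). Lsm4 rose by 0.50 (limma, adjusted p = 0.0489). In the genotype comparison the differences of Snrpd2 (-0.21) and Snrpa1 (-0.27) rested on this embryo, and without it they were -0.03 and -0.001.

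The other 3 calls lay in 3 embryos: Prpf18 fell by 2.06 in PargA-3, Srsf2 fell by 0.75 in PargC-1, and Sf3b4 rose by 1.29 in PargB-3. Among WT embryos, Lsm2 rose by 1.92 in WT1-1, while Snrnp25 fell by 1.98 in WT1-3, Prpf31, a U4/U6 protein, fell by 1.26 in WT2-2, and Srsf3 fell by 0.92 in WT3-3. No gene was called in more than 1 embryo. For Srsf3, a second probe set was lowest in the same embryo as the chosen one, PargC-1, and a dim one (mean 6.37) was highest there. The rise of Sf3b4 was that of the chosen probe set. Its other probe set (mean 7.56) read 7.46 in PargB-3, where the WT embryos ran from 6.60 to 8.09.

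Other genes of splicing were taken from 5 lists, and 0 of their genes were called between genotypes in limma. Of 55 other core and catalytic splicing factors measured, 38 lay lower in Parg(110)-/+ embryos and 17 higher (median -0.09), and 5 (9.09%) lay lower at an unadjusted p under 0.05: Slu7, a factor of the catalytic steps, -0.58 ± 0.19, Tra2a -0.66 ± 0.24 and Tra2b -0.18 ± 0.08, both SR-like regulators, Zmat5 of the U11/U12 snRNP -0.73 ± 0.29, and Ik -0.31 ± 0.14. The list was 69.1% lower, where 41.4% of bright probe sets and 53.9% of those at a level of 8 or more were, and 2.62% and 3.79% of these lay lower at that threshold. Without PargB-1 the counts were 39 lower and 5 at that threshold. With equal array medians they were 42 (76.4%) and 9 (16.4%), against 65.9% and 7.49% of the probe sets at a level of 8 or more. Of 20 genes of snRNP assembly 13 were lower (median -0.07), with 1 lower at that threshold, Gemin4 of the SMN complex (-0.72 ± 0.34). The mean log2 level of this assembly list was lowest in PargB-1, at 8.82, against 9.20 to 9.78 in WT embryos. In the same embryo the mean level of the hnRNP list was 10.28, against 10.35 to 10.67 in WT embryos. The remaining splicing lists lay within the WT range in PargB-1. Other core factors read 9.53 (WT 9.52 to 9.72), kinases and import 9.51 (WT 9.37 to 9.87), and decapping partners 8.47 (WT 8.35 to 8.52). The 2-cell marker level of PargB-1 was 9.69, the highest of the 18 embryos (WT 8.33 to 9.26). Its oocyte marker level was 10.42, the highest of the Parg(110)-/+ embryos (WT 9.91 to 10.55). The part of these levels in the results for PargB-1 was not tested.

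Among 9 genes of SR protein kinases and import, 2 were lower (median 0.06), and Tnpo3, the importer of SR proteins, differed by -0.42 ± 0.13. Of 17 hnRNP genes 9 were lower (median -0.01), and Hnrnpa2b1 (-0.25 ± 0.08) and Hnrnpl (-0.51 ± 0.23) were the 2 at an unadjusted p under 0.05. Of 13 decapping partners of the LSm proteins 6 were lower (median 0.02), with Dcp1a at -0.36 ± 0.12 and Ddx6 at -0.49 ± 0.19. No gene of these lists lay higher at that threshold. These counts stand beside the same shares of bright probe sets, 41.4% lower and 2.62% lower at that threshold. For probe sets at a level of 8 or more these shares were 53.9% and 3.79%. Of the mostly dim marker lists, spermatid markers lay higher in 12 of 13 cases (3 at that threshold), cumulus, granulosa and oviduct markers in 13 of 14 (5) and blood markers in 7 of 7 (1), with medians of 0.10, 0.11 and 0.09. Among all dim probe sets 75.6% lay higher, and 10.2% did so at that threshold.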

How the data were processed

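Amplified cDNA (NuGen WT-Ovation One-Direct) of 18 single embryos was hybridized, 1 embryo per array. The deposited log2 values were made by the authors with RMA in Partek Genomics Suite (background correction, quantile normalization, log2 transformation, summarization of probes). Versions are not given in the sources used here. Quantile normalization can reduce a change shared by most genes, and values near background are compressed. Of 28815 probe sets, 21780 name 1 gene in the platform annotation. Models were fitted over all probe sets with limma 3.58.1 in R 4.3.3 (lmFit and eBayes, two-sided), with p-values adjusted by Benjamini-Hochberg and called below 0.1, as in the study. Compared were 9 Parg(110)-/+ with 9 WT embryos, 3 fathers within a genotype (F test over 1 fit of 6 fathers), and each embryo with the WT embryos. The fits were tested on simulated data. Whether embryos of 1 father came from 1 litter is not given in the sources used here, so the p-values measure the spread between these embryos. The number of arrays limits the precision.

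The genes and lists were chosen with earlier results of these data known. Named with values were the 10 genes of smallest genotype p, the 8 of largest and 6 of smallest SD, the 4 of smallest p in each F test, those called in single embryos, and the largest difference in each direction per particle. Prpf8, Snrnp200, Snrnp48, Srsf11 and the genes of the other lists were added after their values were seen. Alternatives were other scalings, a filter on dim probe sets, father as a random block or as means per father, an intensity trend, a one-way ANOVA, the mean of all probe sets, and leaving out embryos and fathers. Leaving PargB-1 out of the F tests and averaging probe sets for the SD were chosen after seeing the data.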

Additional observations from a re-analysis of the deposited data

Results flagged for a closer look

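Among the 35 named genes, 70 groups of 9 embryos were examined for a sample far from the others by Dixon's criterion, and 10 (14.3%) held one, where chance gives about 1 in 20. In WT embryos the log2 value of Lsm2 was 9.97 in WT1-1 (next highest 8.44), that of Lsm6 was 5.79 in WT3-2 (next lowest 8.29), that of Prpf31 was 7.22 in WT2-2 (next 8.30), that of Snrnp25 was 8.97 in WT1-3 (next 10.29), that of Snrpa1 was 10.38 in WT1-3 (next 10.99), and that of Srsf3 was 11.05 in WT3-3 (next 11.76). Srsf10 was high in WT3-2, at 12.29 (next 12.03). In Parg(110)-/+ embryos Lsm6 was 7.01 in PargA-2 (next 9.21), Snrnp27 was 8.29 in PargB-2 (next 9.78), and Srsf9 was 6.66 in PargB-1 (next 9.04). The genes were named partly for large SDs and for calls in single embryos, which raises this share.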

How the results depend on the processing

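The count of 0 genes called between genotypes held under every alternative run, including the father as a random block (consensus correlation -0.02) and the means per father. The count of genes lower at an unadjusted p under 0.05 was 6 to 7 when single embryos were left out. The count of genes higher at that threshold, 3 on the deposited values, was 1 with equal array medians, 1 by a plain one-way ANOVA, 1 without the embryos of father WT1, 1 without those of WT2 and 1 without those of PargC, and ran from 1 to 4 when single embryos were left out, at 1 without WT1-2, WT1-3, WT2-1, WT2-3, WT3-2, PargA-1, PargC-1 or PargC-2. Over those fits 33 to 38 genes were lower, the median difference ran from -0.07 to -0.01, and the median SD from 0.38 to 0.44. Without the embryos of PargB the difference of Snrpd2 turned to 0.0465 and that of Snrpa1 to 0.14. The calls in WT embryos were 2 rather than 4 when only bright probe sets were fitted. Counts of fathers' differences stayed within 1.5 times. The cause of these shifts was not tested. Signal near background limits what can be seen for Srsf12 and Prpf40b. No paired analysis was possible because the replicate numbers belong to different fathers in each genotype.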
